A study of Mus musculus with 18 samples.

Results

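The genes described here are 10 members of the ETS family of transcription factors, namely Spi1, Spib, Fli1, Erg, Ets1, Ets2, Elf1, Elf4, Etv6 and Gabpa, taken by gene symbol from 2 tables of mouse RNA-seq read counts that list 25628 and 26903 genes. All 10 were found in both tables. The cells were leukemic erythroid blasts from mouse bone marrow, a culture named #763 of TgSpi1 cells, which overexpress SPI1, kept in medium with erythropoietin. Every group carried both the Spi1 transgene and a doxycycline-inducible short hairpin RNA against Spi1. There is 1 line, no group is labelled with a control hairpin, and the promoter of the transgene is not given in the sources used here. The Spi1 count does not separate transcripts of the transgene from those of the mouse's own gene.

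In experiment 1, Exp1_NoDox cells received no doxycycline and Exp1_Dox cells received it for 48 h. In experiment 2, cells with or without doxycycline for 48 h also received 3 µM entinostat, an inhibitor of the histone deacetylases HDAC1 and HDAC3, or its solvent DMSO, for 6 h. The groups of this experiment are NoDox_DMSO and Dox_DMSO in solvent, and NoDox_Entinostat and Dox_Entinostat in drug. Comparisons within experiment 2 share groups. There were 6 groups in all with 3 libraries each, labelled as biological replicates, and p-values measure the spread between them.

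ETS proteins share a winged helix-turn-helix domain that binds DNA around a GGAA core, and most family members are told apart by the bases beside that core and by their partner proteins. PU.1, the product of Spi1, directs myeloid and B cell development and must decline for red cells to mature, in part because PU.1 and the erythroid factor GATA1 restrain each other. In erythroleukemias of mice infected with Friend viruses, provirus insertions that activate Spi1 or Fli1 recur, which ties these ETS genes to this kind of tumour.

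Promoter sequence was read for the members that a RefSeq table (build GRCm38.p6) lists, which were 7 of 10 with 11 promoters, each running from 250 bases before to 50 after a start site. Short motifs were sought on both strands: GAGGAA, the core of the PU box bound by PU.1, CCGGAAG, a core preferred by GABP and other ETS factors, and AGATAA, bound by GATA factors. GAGGAA lay in the Gabpa promoter and in both Elf4 promoters, and CCGGAAG lay in that of Gabpa. The motif CCGGAAG occurs in 8.86% of the table's 32851 promoters, GAGGAA in 28.3% and AGATAA in 11.2%, and a match is a description, not a site. The Gabpa and upstream Elf4 promoters are shown because they hold a motif and their genes fell with doxycycline in experiment 1. Elf1 also fell, and its promoters hold none of these motifs. The motifs are in capitals on the strand of transcription (TTCCTC is GAGGAA and CTTCCGG is CCGGAAG on the other strand).
Gabpa, chr16:84834874-84835173, plus strand: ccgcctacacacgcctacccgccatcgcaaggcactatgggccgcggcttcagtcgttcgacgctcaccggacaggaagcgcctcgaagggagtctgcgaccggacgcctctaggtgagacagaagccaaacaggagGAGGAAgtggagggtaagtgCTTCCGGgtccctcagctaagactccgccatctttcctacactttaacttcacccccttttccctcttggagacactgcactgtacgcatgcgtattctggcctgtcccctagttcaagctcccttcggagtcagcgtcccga
Elf4, chrX:48463083-48463382, minus strand: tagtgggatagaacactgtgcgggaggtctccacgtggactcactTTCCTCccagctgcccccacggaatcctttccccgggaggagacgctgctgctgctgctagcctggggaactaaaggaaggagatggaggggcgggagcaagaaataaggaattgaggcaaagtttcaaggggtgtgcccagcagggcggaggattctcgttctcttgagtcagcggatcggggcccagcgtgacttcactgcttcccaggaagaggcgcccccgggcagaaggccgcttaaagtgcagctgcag
In the Gabpa promoter GAGGAA began 113 bases before the start site and CTTCCGG followed 93 bases before it. The GENCODE M21 gene model of Gabpa begins further upstream, at base 84834925, so both matches lie inside the annotated gene. The Elf4 match lay 205 bases before the start site, and that of its other promoter 75 bases before. Erg has an AGATAA match in 1 of its promoters, and the letters of none of the 3 motifs occur in the windows of Elf1, Etv6, Ets2 and Spib.

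Total counts ran from 82674499 to 113804574 per library in experiment 1 and from 43116322 to 48855905 in experiment 2. In experiment 2 the first NoDox_Entinostat and first Dox_DMSO libraries stood apart. Their log2 values deviated from those of their groupmates by 0.759 and 0.783 (root mean square), against 0.330 to 0.518 in the other 10 libraries. Transcripts over 5 kb sat lower in them than in their groupmates, by a median of -0.53 and -0.43 on the log2 scale, and those under 2 kb sat higher, by 0.56 and 0.54. Of the members only Spi1, Spib, Fli1 and Erg have exon lengths under 5 kb, from 2695 to 3486 bases. The part of transcript length in the members' values was not tested, and the counts of calls in experiment 2 are also given without these 2 libraries, which were left out together. They were chosen for their deviation, so the spread estimated without them is smaller by selection. NoDox_Entinostat and Dox_DMSO then hold 1 library fewer each. Summed erythroid marker RNA was 3936 to 8212 CPM per library (the count relative to the TMM-scaled library total), with 11 of 12 listed markers over 1 CPM in each group, and the T and NK cell, B cell, neutrophil and endothelial lists summed to at most 3.75 CPM.

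Doxycycline alone was followed in experiment 1 by lower RNA of Spi1 and 4 other ETS genes. Of the 8 members that passed the filter on low counts, 0 rose and 5 fell (Spi1, Ets1, Elf1, Elf4 and Gabpa), where 8.36% of all genes tested fell. The libraries of the groups did not overlap for 7 of 8 members, against 32.1% of all genes. The median log2 fold change of the 8 was -0.794, and that of all genes 0.023. Spi1 is the hairpin's target, so its fall was the aim of the design. It is included in the counts and medians of members in every doxycycline comparison. Called means an adjusted p under 0.05 in edgeR's quasi-likelihood test, two-sided, with Benjamini-Hochberg adjustment over all genes. In bulk RNA, fewer cells that express a gene and less RNA per cell cannot be told apart.

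Spi1, the target of the hairpin, had 379, 455 and 459 CPM in the Exp1_NoDox libraries and 133, 125 and 132 CPM in the Exp1_Dox libraries. Every Exp1_Dox library was below every Exp1_NoDox library, with a narrow spread after doxycycline. The log2 fold change was -1.73 ± 0.098 (SE, n = 3 per group, edgeR adjusted p = 0.000828), which leaves 0.302 of the untreated level.

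Fli1, which drives megakaryocyte genes and holds erythroid precursors immature when overexpressed, had 35.8, 19.6 and 28.5 CPM without and 18.01, 8.25 and 11.8 CPM with doxycycline. The groups did not overlap, and the order of the replicates was the same in both. The log2 fold change of -1.14 ± 0.336 did not pass (edgeR adjusted p = 0.0806). In DESeq2, in a fit that called 19.4% of all genes, Fli1 passed at -1.14 (DESeq2 adjusted p = 0.00673). Same-numbered libraries deviated together in experiment 1. Exp1_NoDox replicate 2 and Exp1_Dox replicate 3 also correlated, at 0.259, and Exp1_NoDox replicate 3 and Exp1_Dox replicate 2 at 0.11. The other unlike-numbered pairs were negative. Blocking on the replicate number, in a fit that calls 7027 of all 13811 genes tested instead of 1881, gave -1.165 (edgeR adjusted p = 9.32e-07).

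Ets1, best known from lymphoid cells and an annotated neighbour of Fli1 on chromosome 9 (93.36 kb apart, on the opposite strand), had 22.4, 17.0 and 17.6 CPM without and 13.0, 11.5 and 11.98 CPM with doxycycline. These groups did not overlap, and Ets1 fell by 0.64 on the log2 scale (SE 0.133, edgeR adjusted p = 0.0255). Ets2, an effector of Ras and ERK signalling, was the exception among the 8, with 38.9, 33.2 and 32.8 CPM without and 41.1, 36.0 and 36.1 CPM with doxycycline. Its log2 fold change was 0.11 ± 0.106 (edgeR adjusted p = 0.616), and its groups overlapped.

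Elf1 and Elf4 are related activators of blood cell genes. Elf1 had 131, 115 and 138 CPM without and 67.8, 64.6 and 74.2 CPM with doxycycline. Elf4, which restrains proliferation of T cells, had 62.1, 38.8 and 47.6 CPM without and 28.3, 18.6 and 20.2 CPM with it. Both fell without overlap of the groups, Elf1 with a log2 fold change of -0.89 ± 0.0986 (edgeR adjusted p = 0.00307) and Elf4 with -1.14 ± 0.229 (edgeR adjusted p = 0.023).

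Etv6, a repressor also called TEL that is needed for blood formation in the bone marrow, had 105, 65.7 and 81.3 CPM without and 64.2, 42.2 and 49.0 CPM with doxycycline. No library of Exp1_Dox reached the lowest of Exp1_NoDox, but the ranges came close. Its log2 fold change of -0.70 ± 0.221 did not pass (edgeR adjusted p = 0.0991), and with the replicate block it was -0.69 (edgeR adjusted p = 1.14e-06). In DESeq2 Etv6 passed at -0.70 (DESeq2 adjusted p = 0.0285). Gabpa, the DNA-binding subunit of the GABP complex that serves mitochondrial and other housekeeping genes, had 227, 213 and 208 CPM without and 164, 170 and 160 CPM with doxycycline. The groups lay apart, and Gabpa fell by 0.39 on the log2 scale (SE 0.0697, edgeR adjusted p = 0.016).

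The calls of Spi1 and Elf1 held with any of the 6 libraries left out. Without the third Exp1_NoDox, the second Exp1_Dox or the third Exp1_Dox library these 2 were the members called. Of all genes 4.83%, 7.53% and 6.31% were called there, against 13.6% with all libraries. In those fits the adjusted p of Ets1 was 0.0784, 0.0913 and 0.11, that of Elf4 0.0841, 0.0799 and 0.1, and that of Gabpa 0.072, 0.0527 and 0.0907. Without the first Exp1_Dox library Fli1 passed (edgeR adjusted p = 0.039) and Ets1 did not (0.0514). With no filter on low counts Gabpa did not pass (edgeR adjusted p = 0.0686). Exons of Elf1, Gabpa and Etv6 overlap those of Wbp4, Atp5j and Gm17089 on the opposite strand by 327, 397 and 135 bases, and the library kit does not mark strand, so reads there cannot be told apart. Summed erythroid markers were 4594 to 4818 CPM in Exp1_NoDox and 6390 to 7113 CPM in Exp1_Dox, and their part in the members' change was not tested.

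**Figure D1:**
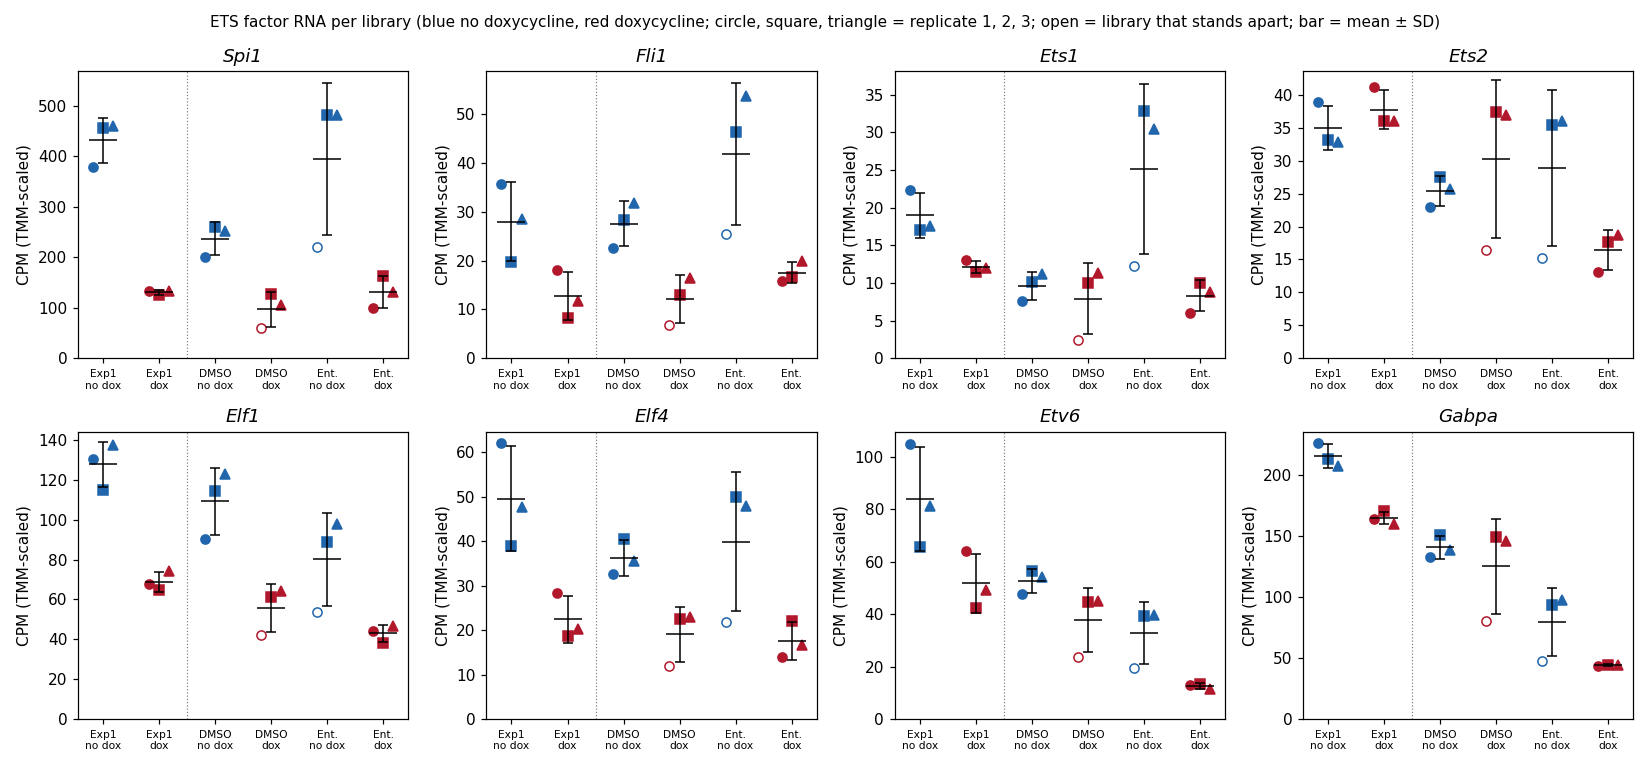
RNA of the 8 ETS genes that passed the filter, in CPM scaled by TMM factors (y axis, linear from 0), for each library of the 6 groups (x axis; the dotted line separates the experiments). Blue marks no doxycycline and red doxycycline, the shape gives the replicate number, open symbols are the 2 libraries that stand apart, and bars are mean ± SD of 3 libraries. Spi1 lies at 379 to 459 CPM in Exp1_NoDox and 125 to 133 CPM in Exp1_Dox.

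The same question was asked again in cells given DMSO. Spi1, Fli1 and Elf1 fell, 0 members rose, and 5.53% of all genes fell. Groups did not overlap for 5 of 8 members, against 25.8% of all genes, and the median log2 fold change of the 8 was -0.702, with 0.052 for all genes. Spi1 had 200, 259 and 251 CPM in NoDox_DMSO and 59.5, 126 and 105 CPM in Dox_DMSO, so that the groups lay apart and the lowest value was that of the Dox_DMSO library that stands apart. Its log2 fold change was -1.29 ± 0.331 (edgeR adjusted p = 0.0264).

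Fli1 had 22.6, 28.3 and 31.8 CPM in NoDox_DMSO and 6.80, 13.0 and 16.4 CPM in Dox_DMSO. Elf1 had 90.2, 115 and 123 CPM and then 42.0, 61.3 and 64.3 CPM. All Dox_DMSO libraries were below all NoDox_DMSO libraries for both. The log2 fold change of Fli1 was -1.19 ± 0.314 (edgeR adjusted p = 0.0303) and that of Elf1 -0.97 ± 0.235 (edgeR adjusted p = 0.0196). Elf4 also lay apart, at 32.6, 40.6 and 35.5 CPM against 11.9, 22.4 and 22.9 CPM, but its -0.93 ± 0.316 did not pass (edgeR adjusted p = 0.0971). Same-numbered libraries of these groups correlated at 0.334, 0.267 and 0.102. NoDox_DMSO replicate 2 and Dox_DMSO replicate 3 correlated at 0.214, and the other unlike-numbered pairs were negative. With the block, in a fit that called 13.5% of all genes, Elf4 passed at -0.99 (edgeR adjusted p = 0.0034).

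Etv6 had 47.5, 56.4 and 54.1 CPM in NoDox_DMSO and 23.8, 44.6 and 45.1 CPM in Dox_DMSO, with no overlap and a log2 fold change of -0.48 that did not pass (edgeR adjusted p = 0.392). For Ets1, Ets2 and Gabpa the second and the third Dox_DMSO libraries lay within or above the NoDox_DMSO range while the first lay far below it. Ets1 had 7.55, 10.1 and 11.2 CPM and then 2.48, 9.96 and 11.3 CPM. Gabpa had 133, 151 and 139 CPM and then 80.6, 149 and 146 CPM, and Ets2 had 23.0, 27.5 and 25.7 CPM and then 16.4, 37.4 and 36.9 CPM. None of these 3 passed (edgeR adjusted p = 0.835, 0.828 and 0.784).

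Without the 2 libraries that stand apart, 5 members passed, where 31.3% of all genes did in either direction: Spi1, Fli1, Elf1 and Elf4 fell and Ets2 rose. Spi1 then had a log2 fold change of -1.03 (edgeR adjusted p = 0.000805), Fli1 of -0.91 (edgeR adjusted p = 0.000786), Elf1 of -0.80 (edgeR adjusted p = 0.000555), Elf4 of -0.68 (edgeR adjusted p = 0.00529) and Ets2 of 0.55 (edgeR adjusted p = 0.00721), while those of Ets1 and Gabpa turned positive at 0.14 and 0.07 and did not pass. Leaving out the second or the third NoDox_DMSO library left 0 members called, with adjusted p values for Spi1 of 0.09 and 0.0903, for Fli1 of 0.0875 and 0.12 and for Elf1 of 0.0726 and 0.092. Of all genes 5.82% and 5.52% were called there, against 9.31% with all libraries. Spi1 did not pass without the first or the third Dox_DMSO library either (edgeR adjusted p = 0.0507 and 0.0688), nor Fli1 without the second Dox_DMSO or the second Dox_Entinostat library (edgeR adjusted p = 0.0764 and 0.0503), nor with the 2 compared groups fitted alone (0.06). Elf4 passed without the first NoDox_Entinostat library (edgeR adjusted p = 0.0187). Summed erythroid markers were 3936 to 4007 CPM in NoDox_DMSO and 4988 to 6568 CPM in Dox_DMSO, and macrophage and monocyte markers 3.16 to 3.64 and 1.66 to 2.60 CPM. Their part in the members' change was not tested.

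In cells given entinostat, doxycycline was followed by lower RNA of 7 of the 8 members, all but Ets2, where 15.1% of all genes fell. The groups did not overlap for 6 of 8 members, against 37.6% of all genes, and the median log2 fold change was -1.22, with -0.079 for all genes. Spi1 had 221, 480 and 482 CPM in NoDox_Entinostat and 98.5, 162 and 132 CPM in Dox_Entinostat, without overlap, and its log2 fold change was -1.59 ± 0.333 (edgeR adjusted p = 0.00722). The first value of NoDox_Entinostat, from the library that stands apart, was the lowest of its group in all 8 members tested.

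Fli1 had 25.5, 46.3 and 53.6 CPM in NoDox_Entinostat and 15.9, 16.6 and 19.9 CPM in Dox_Entinostat, a log2 fold change of -1.26 (edgeR adjusted p = 0.0162). Ets1 had 12.2, 32.9 and 30.5 CPM and then 6.02, 10 and 8.83 CPM, with -1.60 ± 0.474 (edgeR adjusted p = 0.031). Neither gene's groups overlapped. Ets2 had 15.3, 35.4 and 36.1 CPM and then 13.1, 17.6 and 18.7 CPM, where the first NoDox_Entinostat library fell inside the Dox_Entinostat range, and its -0.81 did not pass (edgeR adjusted p = 0.0913).

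Elf1 had 53.8, 88.6 and 97.9 CPM in NoDox_Entinostat and 44.1, 38.1 and 46.7 CPM in Dox_Entinostat. Elf4 had 21.8, 49.96 and 47.9 CPM and then 13.9, 22.1 and 16.6 CPM. Elf1 fell without overlap (log2 fold change -0.90, edgeR adjusted p = 0.0198), and Elf4 fell with its groups just overlapping (log2 fold change -1.18, edgeR adjusted p = 0.0218). Etv6 had 19.4, 39.3 and 39.8 CPM and then 13.0, 13.3 and 11.4 CPM. Gabpa had 47.8, 93.1 and 97.9 CPM and then 43.2, 44.6 and 44.3 CPM, a spread of only 0.740 CPM (SD) around 44.0 CPM in Dox_Entinostat. Both fell without overlap, Etv6 with a log2 fold change of -1.38 ± 0.284 (edgeR adjusted p = 0.00661) and Gabpa with -0.86 (edgeR adjusted p = 0.0389).

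Without the 2 libraries that stand apart, all 8 members fell, where 61.8% of all genes changed in either direction. The log2 fold changes then ran from -1.94 for Ets1 and -1.88 for Spi1 to -1.12 for Ets2, Elf1 and Gabpa (edgeR adjusted p at most 8.71e-06). Spi1 and Etv6 passed with any of the 12 libraries left out. Without the first, the second or the third Dox_Entinostat library 4, 3 and 3 members were called, and without the second or the third NoDox_Entinostat library 2 were. Of all genes 18.3%, 9.86%, 7.15%, 6.99% and 6.42% were called in these fits, against 24% with all libraries. Ets1 failed in these 5 fits (edgeR adjusted p = 0.0911, 0.0769, 0.0903, 0.116 and 0.113), and so did Gabpa (0.0845, 0.103, 0.109, 0.146 and 0.166), which also missed without each NoDox_DMSO library (0.0534, 0.0529 and 0.0548). Elf1 failed without the second or the third library of either entinostat group (0.0589 to 0.0997), Elf4 without the first or the third Dox_Entinostat or the second or the third NoDox_Entinostat library (0.0663 to 0.0946), and Fli1 without the second Dox_Entinostat or the second or the third NoDox_Entinostat library (0.0603 to 0.0805). Ets2 passed without the first NoDox_Entinostat or the first Dox_DMSO library (edgeR adjusted p = 0.00602 and 0.0275). Summed macrophage and monocyte markers were 12.2 to 16.9 CPM in NoDox_Entinostat and 2.69 to 4.30 CPM in Dox_Entinostat, and erythroid markers 4175 to 4307 and 6102 to 8212 CPM, and whether these bear on the members was not tested.

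**Figure D2:**
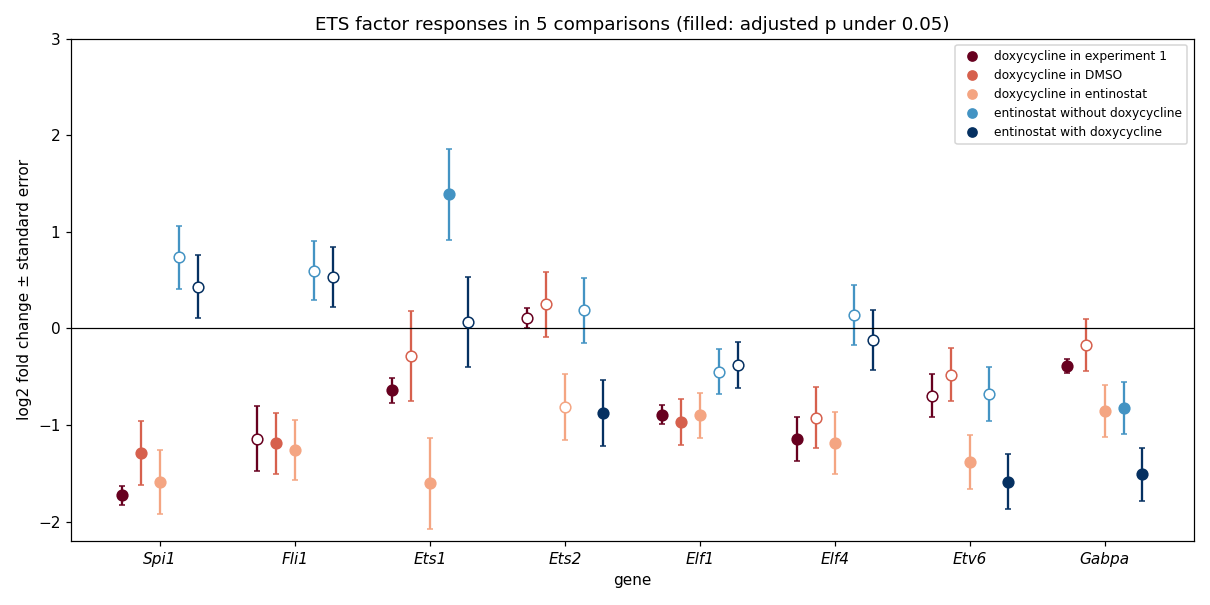
Log2 fold change ± SE (y axis) of the 8 ETS genes (x axis) in 5 comparisons, filled where the edgeR adjusted p is under 0.05. The 3 doxycycline comparisons give Spi1 values of -1.73, -1.29 and -1.59, and the 2 entinostat comparisons give Gabpa values of -0.82 and -1.51.

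Entinostat in cells without doxycycline was followed by more Ets1 RNA and less Gabpa RNA, and the other 6 members tested did not pass. Of all genes, 30.3% rose and 16.9% fell. Groups did not overlap for 3 of 8 members, against 60.2% of all genes, and the members' median log2 fold change was 0.164, with 0.069 for all genes. Ets1 went from 7.55, 10.1 and 11.2 CPM in NoDox_DMSO to 12.2, 32.9 and 30.5 CPM, with no overlap and a log2 fold change of 1.39 ± 0.471 (edgeR adjusted p = 0.0274). Gabpa went from 133, 151 and 139 CPM to 47.8, 93.1 and 97.9 CPM, with no overlap and a fall of 0.82 on the log2 scale (SE 0.27, edgeR adjusted p = 0.0237).

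Spi1 in the second and the third NoDox_Entinostat libraries, at 480 and 482 CPM, was above every NoDox_DMSO library, and the first, at 221 CPM, was inside their range. Its log2 fold change of 0.74 did not pass (edgeR adjusted p = 0.0813). Fli1 behaved alike in its libraries, with 0.60 (edgeR adjusted p = 0.13). Etv6 was the other member whose groups lay apart, at 47.5 CPM or more against 39.8 CPM or less, and its -0.68 did not pass (edgeR adjusted p = 0.0607). In DESeq2, in a fit that called 50.7% of all genes, Etv6 passed at -0.69 (DESeq2 adjusted p = 0.0452). The values of Elf1, Elf4 and Ets2 were -0.45, 0.14 and 0.19 (edgeR adjusted p = 0.136, 0.748 and 0.684). Same-numbered NoDox_DMSO and NoDox_Entinostat libraries correlated at 0.336, 0.315 and 0.0964. NoDox_DMSO replicate 2 and NoDox_Entinostat replicate 3 correlated at 0.216, and the other unlike-numbered pairs were negative. With the replicate block, in a fit that called 55.2% of all genes, Spi1, Fli1, Elf1 and Etv6 passed too (edgeR adjusted p = 0.00849, 0.0208, 0.031 and 0.00999).

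Without the 2 libraries that stand apart, 7 members passed, where 63.9% of all genes did in either direction: Spi1, Fli1, Ets1, Ets2 and Elf4 rose, and Etv6 and Gabpa fell. Spi1 then had a log2 fold change of 1.02 (edgeR adjusted p = 0.000204), Fli1 of 0.85 (edgeR adjusted p = 0.000266) and Ets1 of 1.71 (edgeR adjusted p = 4.95e-06). Leaving out the second or the third NoDox_DMSO library left 0 members called, with adjusted p values for Ets1 of 0.0649 and 0.0511 and for Gabpa of 0.0674 and 0.0514. Of all genes 38.5% and 39.4% were called there, against 47.2% with all libraries. Ets1 also missed without the first NoDox_DMSO, the second NoDox_Entinostat or the third NoDox_Entinostat library (edgeR adjusted p = 0.0983, 0.0875 and 0.0759), and Etv6 passed without the last of these (0.0479). Gabpa missed without the first NoDox_Entinostat library (edgeR adjusted p = 0.0548), where Spi1 and Fli1 passed (0.00853 and 0.0207), and these 2 and Etv6 passed without the first Dox_DMSO library (0.0375, 0.0481 and 0.0184). With library size alone as the scale, Gabpa did not pass (-0.56, edgeR adjusted p = 0.154) and Spi1 did (1.002, edgeR adjusted p = 0.0354). Summed macrophage and monocyte markers were 3.16 to 3.64 CPM in NoDox_DMSO and 12.2 to 16.9 CPM in NoDox_Entinostat, mast cell markers 7.40 to 16.1 and 43.3 to 138 CPM, and megakaryocyte markers 35.7 to 73.3 and 92.1 to 129 CPM. Their part in the members' values was not tested.

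Entinostat in cells with doxycycline was followed by less Etv6, Gabpa and Ets2 RNA, and 0 members rose. Of all genes, 33.9% rose and 29.9% fell. Groups did not overlap for 2 of 8 members, against 66% of all genes, and the members' median log2 fold change was -0.249, with 0.14 for all genes. Etv6 went from 23.8, 44.6 and 45.1 CPM in Dox_DMSO to 13.0, 13.3 and 11.4 CPM, with no overlap and a log2 fold change of -1.59 ± 0.285 (edgeR adjusted p = 0.000439). Gabpa went from 80.6, 149 and 146 CPM to 43.2, 44.6 and 44.3 CPM, again with no overlap, and fell by 1.51 on the log2 scale (SE 0.274, edgeR adjusted p = 0.000474). Both passed with any of the 12 libraries left out.

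Ets2 went from 16.4, 37.4 and 36.9 CPM to 13.1, 17.6 and 18.7 CPM, where the Dox_DMSO library that stands apart lay inside the Dox_Entinostat range, and fell by 0.88 on the log2 scale (edgeR adjusted p = 0.0376). It did not pass without any single Dox_Entinostat library (edgeR adjusted p = 0.122, 0.0763 and 0.0547), without replicate 2 or 3 of Dox_DMSO (0.124 and 0.118) or with library size alone as the scale (0.0895). Spi1 went from 59.5, 126 and 105 CPM to 98.5, 162 and 132 CPM with overlap, and its 0.43 did not pass (edgeR adjusted p = 0.26). Fli1, Ets1, Elf1 and Elf4 had log2 fold changes of 0.53, 0.07, -0.38 and -0.12 (edgeR adjusted p = 0.151, 0.909, 0.17 and 0.753). Without the 2 libraries that stand apart, 5 members fell, Elf1 (-0.56, edgeR adjusted p = 0.00159) and Elf4 (-0.38, edgeR adjusted p = 0.0422) beside those 3, where 77.8% of all genes changed. Elf1 also passed without the first Dox_DMSO library alone (edgeR adjusted p = 0.041). Summed mast cell markers were 5.51 to 13.0 CPM in Dox_DMSO and 38.6 to 84.5 CPM in Dox_Entinostat, megakaryocyte markers 38.4 to 53.8 and 72.9 to 134 CPM, macrophage and monocyte markers 1.66 to 2.60 and 2.69 to 4.30 CPM, and neutrophil markers 0.0432 to 0.215 and 0.962 to 2.16 CPM. Their part was not tested.

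Whether the doxycycline response differed between entinostat and DMSO was tested as an interaction, which equals the difference between the entinostat responses with and without doxycycline. In the fit of 12 libraries 0 of 8 members passed in edgeR and 0 in DESeq2, 2 (Ets2 and Etv6) had an unadjusted p under 0.05 in edgeR, and 0.272% of all genes passed. The log2 differences were -0.30 for Spi1, -0.07 for Fli1, -1.32 ± 0.661 for Ets1, -1.07 ± 0.477 for Ets2, 0.07 for Elf1, -0.26 for Elf4, -0.91 ± 0.394 for Etv6 and -0.69 ± 0.38 for Gabpa (edgeR adjusted p from 0.314 to 0.944). The members' median was -0.496 and that of all genes -0.095.

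Both libraries that stand apart enter this contrast. Without them 7 of 8 members passed, all with a more negative doxycycline response under entinostat, where 51.5% of all genes passed in either direction. That share is not split by direction here. Because these libraries were chosen for their deviation, the spread estimated without them is smaller by selection, which bears on the adjusted p values below. Ets1 had the most negative difference, -2.08 (edgeR adjusted p = 2.59e-05). Ets2 had -1.67 (edgeR adjusted p = 9.15e-06), Etv6 -1.42 (edgeR adjusted p = 4.98e-06) and Gabpa -1.19 (edgeR adjusted p = 7.56e-06). Spi1, Elf4 and Fli1 had -0.85, -0.81 and -0.61 (edgeR adjusted p = 0.011, 0.00704 and 0.0312), and Elf1, at -0.32, did not pass (0.167). Leaving out the first NoDox_Entinostat library alone gave 3 calls, Ets2, Etv6 and Gabpa (edgeR adjusted p = 0.0343, 0.0333 and 0.0418), and the first Dox_DMSO library alone gave Ets1, Ets2 and Etv6 (0.0405, 0.0416 and 0.0416). These fits called 19.7% and 16.9% of all genes. The other 10 fits with a library left out gave 0 calls.

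**Figure D3:**
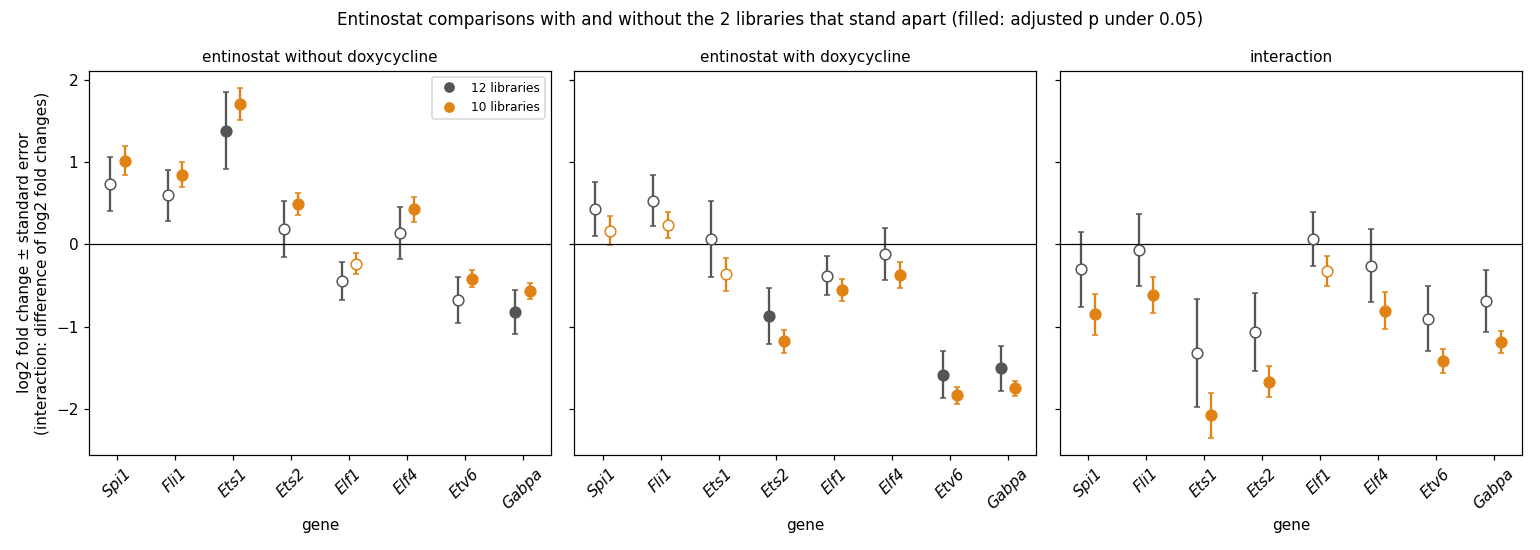
Log2 fold change ± SE of the 8 ETS genes in the entinostat comparisons, and the log2 interaction difference, in 12 libraries (grey) and without the first NoDox_Entinostat and first Dox_DMSO libraries (orange), filled where the edgeR adjusted p is under 0.05. In the interaction panel 0 grey and 7 orange points are filled, with Ets1 at -1.32 and -2.08.

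Levels of different genes were compared per kb of exon, as CPM per kb. Spi1 had the highest of the members in all 6 groups, from 36.0 ± 12.7 (SD, n = 3) in Dox_DMSO to 160 ± 16.7 in Exp1_NoDox. Gabpa had the next highest mean in every group, with 24.7 ± 1.62 in NoDox_DMSO and 7.74 ± 0.130 in Dox_Entinostat. Elf1 followed in 5 of 6 groups, for example at 16.2 ± 2.51 in NoDox_DMSO. In NoDox_Entinostat the ranges of mean ± SD of Gabpa (14 ± 4.86), Fli1 (11.99 ± 4.18) and Elf1 (11.9 ± 3.45) overlapped. Within each of these libraries Gabpa, at 8.41, 16.4 and 17.2, was above both Fli1 and Elf1, while Fli1 and Elf1 changed order. In Dox_DMSO the ranges of mean ± SD of Spi1 and Gabpa overlapped, at 36.0 ± 12.7 and 22.0 ± 6.81, and so did those of Elf1 and Etv6, at 8.29 ± 1.80 and 6.32 ± 2.03. Within each Dox_DMSO library, however, Spi1 was above Gabpa and Elf1 was above Etv6. Ets1 was the lowest of the 8 tested members in all 6 groups, between 0.932 ± 0.559 in Dox_DMSO and 2.97 ± 1.33 in NoDox_Entinostat. In NoDox_DMSO Fli1 (7.91 ± 1.34), Elf4 (5.89 ± 0.658) and Ets2 (4.39 ± 0.391) lay above it with ranges that did not overlap, and in Exp1_Dox Ets2 (6.53 ± 0.507) lay above Fli1 (3.64 ± 1.42) and Elf4 (3.64 ± 0.845).

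**Figure D4:**
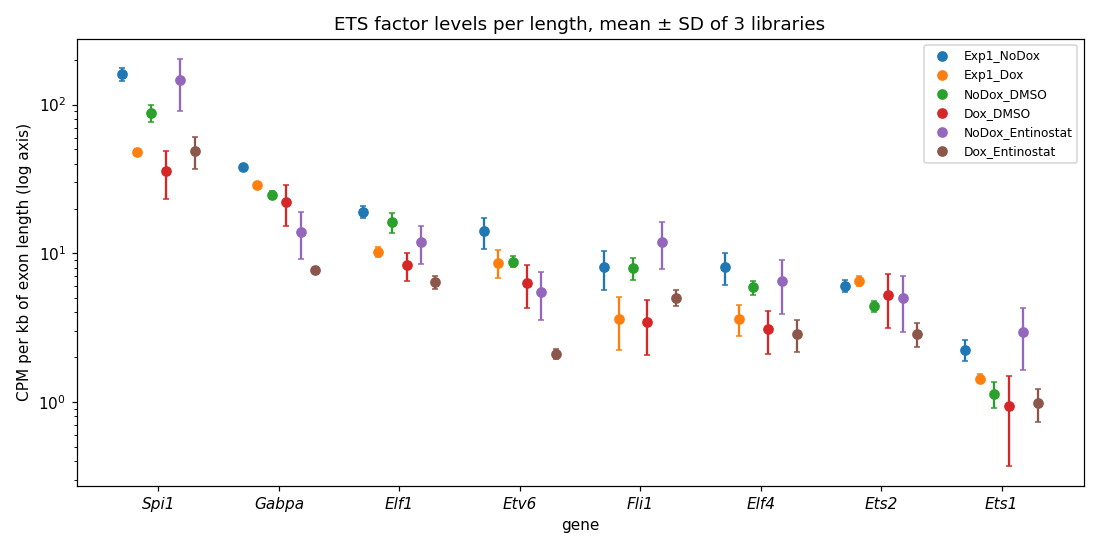
Level per kb of exon (y axis, log scale, CPM per kb, mean ± SD of 3 libraries) of the 8 ETS genes (x axis) in the 6 groups. Spi1 is highest in every group and Ets1 lowest, at 160 and 2.24 CPM per kb in Exp1_NoDox.

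Spib, the closest relative of Spi1 and a factor of B cells and plasmacytoid dendritic cells, and Erg, a relative of Fli1 active in blood stem cells and endothelium, did not pass the filter. Spib had 0 to 6 counts per library across the 18. Erg had 0 counts in all 6 DMSO libraries, where 3 counts over a group would be 0.022 and 0.0225 CPM, and 2, 8 and 5 counts in NoDox_Entinostat, all above DMSO, with 0, 2 and 0 in Dox_Entinostat. In experiment 1, whose table has a lowest value of 1, Erg had 1 or 2. With no filter on low counts Erg was called between NoDox_Entinostat and NoDox_DMSO, on these counts.

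The genes with the profile most like that of Spi1 over the 18 libraries, among 8607 with at least 5 CPM on average in each experiment, were Adam9, Pik3cg, Man2b1, Clstn3 and Bhlhe40, whose log2 CPM, centred per experiment, differed from that of Spi1 by a root mean square of 0.233 to 0.259. Adam9, a membrane metalloprotease, had 19.4 ± 1.23 CPM (SD, n = 3) in Exp1_NoDox and 8.11 ± 0.745 in Exp1_Dox, and 41.6 ± 14.3 in NoDox_Entinostat. Fli1 ranked 35 at 0.359, Elf4 45, Ets1 130 and Elf1 239, while Etv6, Ets2 and Gabpa ranked 1719, 1722 and 3026. This is a description, and the libraries share their depth and the deviations of the 2 that stand apart.

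Among 16 other ETS genes, 10 were tested in experiment 1 and 11 in experiment 2. Doxycycline was followed by 2 that fell in experiment 1 and 1 in DMSO, with none rising, and Etv4, a target of ERK signalling, fell in both, from 0.804 to 0.295 CPM (log2 fold change -1.44, edgeR adjusted p = 0.00478) and from 0.933 to 0.277 CPM (-1.74, edgeR adjusted p = 0.00948). In entinostat 6 fell, led by Etv5, from 20.3 to 4.54 CPM (log2 fold change -2.16, edgeR adjusted p = 0.000711). The list's median log2 fold changes were -0.238, -0.319 and -0.759. Of all genes, 8.36%, 5.53% and 15.1% fell in these 3 comparisons, which serves for the next lists too. With the replicate block, in a fit that called 50.9% of all genes, 9 of 10 genes of the list passed in experiment 1, 2 up and 7 down. Entinostat without doxycycline was followed by 3 that rose and 2 that fell, and with doxycycline by 3 and 3. Among all genes 30.3% rose and 16.9% fell without doxycycline, and 33.9% rose and 29.9% fell with it. Ehf, an epithelial ETS factor, rose from 0.169 to 37.6 CPM without doxycycline (log2 fold change 7.78, edgeR adjusted p = 2.01e-07), and from 0.408 to 31.8 CPM with it (6.25, edgeR adjusted p = 3.15e-07). Elf2, a relative of Elf1, fell from 140 to 81.1 CPM and from 151 to 74.3 CPM (-0.79 and -1.03, edgeR adjusted p = 0.00135 and 0.000165). Of this list 5, 9, 8 and 8 were called in the 4 comparisons of experiment 2, in this order, without the 2 libraries that stand apart. That fit called 31.3%, 61.8%, 63.9% and 77.8% of all genes.

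Of 13 tested partner genes of ETS factors, Cbfb, the partner of RUNX1, fell with doxycycline in experiment 1 (187 to 64.1 CPM, log2 fold change -1.54, edgeR adjusted p = 0.000671) and in DMSO (157 to 53.8 CPM, -1.55, edgeR adjusted p = 0.000131), while Tal1, an erythroid factor, rose in both (0.62 and 0.66, edgeR adjusted p = 0.00263 and 0.0255) and the other 11 did not pass. With the replicate block, in a fit that called 50.9% of all genes, 7 passed in experiment 1, 4 up and 3 down. In entinostat 3 fell, Cbfb, Jun and Runx1. Entinostat was followed by 1 that rose, Jun, a PU.1 coactivator, and 6 that fell without doxycycline, and by Jun and 10 that fell with it. Gabpb1, the GABP subunit that pairs with GABPA, fell with entinostat from 43.6 to 24.3 CPM without doxycycline (-0.84, edgeR adjusted p = 0.000605) and from 51.0 to 31.9 CPM with it (-0.68, edgeR adjusted p = 0.00185). Lmo2 and Tal1, members of an erythroid complex with GATA1, fell in both entinostat comparisons (edgeR adjusted p at most 0.000175). The list's median log2 fold change was -0.411 and -0.955 in these comparisons, and 7, 9, 8 and 12 of the list were called in the 4 comparisons, in the order above, without the 2 libraries that stand apart. Of all genes 31.3%, 61.8%, 63.9% and 77.8% were called in that fit.

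Of 16 textbook PU.1 target genes, 10 were tested in experiment 1 and 12 in experiment 2. Doxycycline was followed by 4, 6 and 7 that fell in experiment 1, DMSO and entinostat, and 0 that rose, with medians of -0.898, -0.767 and -1.42. Itgb2, a leukocyte integrin chain, fell from 88.3 to 20.2 CPM (log2 fold change -2.13, edgeR adjusted p = 0.000882), from 89.0 to 11.4 CPM (-2.97, edgeR adjusted p = 2.37e-05) and from 80.9 to 13.96 CPM (-2.54, edgeR adjusted p = 0.000159). Lyn and Btk, kinases of immune receptors, fell in all 3. With the replicate block, in a fit that called 50.9% of all genes, 9 of 10 passed in experiment 1, 1 up and 8 down. Entinostat was followed by 8 that rose and 1 that fell without doxycycline, and by 5 and 1 with it. Btk was the gene that fell, from 278 to 123 CPM and from 158 to 58.7 CPM (-1.18 and -1.43, edgeR adjusted p = 0.000587 and 0.000118), and Cd72 rose from 0.695 to 7.86 CPM and from 0.560 to 7.25 CPM (3.49 and 3.69, edgeR adjusted p = 1.28e-06 and 7.62e-07). The calls numbered 6, 9, 9 and 8 without the 2 libraries that stand apart, where 31.3%, 61.8%, 63.9% and 77.8% of all genes were called.

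Of 8 FLI1 and megakaryocyte target genes, 7 and 6 were tested. Tek, a receptor kinase, fell with doxycycline in experiment 1 (0.576 to 0.140 CPM, log2 fold change -2.03, edgeR adjusted p = 0.0239) and in entinostat (4.39 to 0.910 CPM, -2.27, edgeR adjusted p = 0.00743), and 0 of 6 passed in DMSO in edgeR, where 3 had an unadjusted p under 0.05. With the replicate block, in a fit that called 50.9% of all genes, 3 passed in experiment 1, 1 up and 2 down. Entinostat was followed by 4 that rose without doxycycline, Gp9, Tek, Gp6 and Pf4, and 4 with it, where Itga2b took the place of Gp6. Pf4, a platelet chemokine, rose from 28.7 to 77.8 CPM and from 24.9 to 72.3 CPM (1.44 and 1.54, edgeR adjusted p = 0.00549 and 0.0027). The calls numbered 1, 2, 4 and 5 without those 2 libraries, where 31.3%, 61.8%, 63.9% and 77.8% of all genes were called. In the interaction 0 genes of the 4 lists passed in edgeR, where 4, 4, 1 and 1 genes of the lists, in the order given, had an unadjusted p under 0.05. DESeq2 called 1 other ETS gene there, and 1.56% of all genes. Without the 2 libraries that stand apart, 6 other ETS genes, 8 partner genes, 1 PU.1 target and 2 FLI1 targets passed. All had a more negative doxycycline response under entinostat, and 51.5% of all genes passed in either direction.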

How the data were processed

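Polyadenylated RNA of 18 libraries was sequenced from unstranded libraries, per the labels. The authors deposited raw read counts per gene in 2 tables, 1 for each experiment. The submitters' processing notes name bcl2fastq 2.17.1.14, STAR, DESeq2 and mm10 with no roles, and the counting tool is not given in the sources used here. Experiment 1's counts start at 1, with 3543 genes at 1 in every library. Gene models were those of GENCODE M21 (24876 and 26853 genes matched). Counts were tested with edgeR 4.0.16 in R 4.3.3 (TMM, filterByExpr, quasi-likelihood, group means, 13811 and 15051 genes tested), separately for each experiment, with Benjamini-Hochberg adjustment over all genes and a threshold of 0.05. SE is the log2 fold change divided by the square root of F. On simulated data with 200 genes changed 2-fold, the fit recovered 77% in experiment 1 and 34% in the DMSO comparison.

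All 10 ETS genes are named, and of each list mostly genes among the 4 with the smallest adjusted p in the comparison. Outside those 4 were Gabpb1 in both entinostat comparisons and Jun for entinostat with doxycycline. So were Lyn for doxycycline in DMSO and Btk for doxycycline in DMSO and in entinostat. The genes and lists were chosen with earlier results of these data known. Same-numbered libraries correlated at 0.313 to 0.829 in experiment 1, and at 0.334, 0.267 and 0.102 between NoDox_DMSO and Dox_DMSO. Between NoDox_DMSO and NoDox_Entinostat they correlated at 0.336, 0.315 and 0.0964. Unlike-numbered pairs reached 0.259, 0.214 and 0.216 in these 3 comparisons. Blocked values stand beside some of the results of these comparisons. Tried as alternatives were DESeq2 1.42.0, scaling by RLE or by library size only, an unfiltered table, the replicate block, the compared groups alone, counts minus 1, and libraries left out. Counts over the lists under these were added after seeing the data.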

Additional observations from a re-analysis of the deposited data

How the results depend on the processing

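Of 848 recomputed single-gene values, 708 kept their direction and their side of the threshold, 61 lost the call, 52 gained it and 27 reversed. None of those 27 values passed in the fit reported, and the cause was not tested. Without the first Dox_DMSO and first NoDox_Entinostat libraries together, the number of ETS genes called was 5 for doxycycline in DMSO, 7 and 5 for entinostat without and with doxycycline and 7 for the interaction, and the values that reversed were 0.14 (Ets1) and 0.0684 (Gabpa) for doxycycline in DMSO, -0.37 (Ets1) for entinostat with doxycycline and -0.32 (Elf1) for the interaction. Of all genes 31.3%, 63.9%, 77.8% and 51.5% were called in that fit, in this order. With no filter 5 were called for entinostat without doxycycline, where 27.7% of all genes were. Reversed values were then -0.0217 (Ets1, entinostat with doxycycline) and -0.0328 (Elf1, interaction). Library size alone gave 0.00639 (Elf4, entinostat with doxycycline) and -0.0642 (Elf1, interaction), and the compared groups alone gave 0.00937 for that Elf4 value.

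With 1 library left out in turn, ETS genes called ranged from 2 to 5 for doxycycline in experiment 1, 0 to 4 in DMSO and 2 to 8 in entinostat, from 0 to 5 for entinostat without and 2 to 4 with doxycycline, and from 0 to 3 for the interaction. The share of all genes called ranged over the same fits from 4.83% to 10.8%, 5.52% to 11.2%, 6.42% to 48.9%, 38.5% to 52.5%, 53.3% to 70.1% and 0.0583% to 19.7%. Reversing values ranged for doxycycline in DMSO from -0.62 to 0.14 (Ets1) and -0.31 to 0.0696 (Gabpa), and for entinostat with doxycycline from -0.37 to 0.40 (Ets1) and -0.38 to 0.0201 (Elf4). They ranged for entinostat without doxycycline from -0.0583 to 0.43 (Elf4) and -0.00457 to 0.49 (Ets2), and for the interaction from -0.16 to 0.23 (Elf1) and -0.36 to 0.21 (Fli1). The number of other ETS genes called ranged from 1 to 2, 1 to 2, 2 to 6, 4 to 6, 6 to 6 and 0 to 4 over the same 6 comparisons, that of partner genes from 2 to 2, 1 to 2, 1 to 6, 7 to 8, 10 to 12 and 0 to 4, that of PU.1 targets from 3 to 5, 4 to 6, 6 to 9, 7 to 10, 6 to 7 and 0 to 0, and that of FLI1 targets from 0 to 1, 0 to 0, 1 to 2, 4 to 4, 4 to 5 and 0 to 2. With no filter, 1 other ETS gene and 0 FLI1 targets were called for doxycycline in experiment 1, where 4.3% of all genes were.

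The replicate block gave 7 ETS genes called for doxycycline in experiment 1, 4 in DMSO and 8 in entinostat, 6 and 5 for entinostat without and with doxycycline, and 0 for the interaction, where Fli1 reversed to 0.0619. These fits called 50.9%, 13.5%, 40.6%, 55.2%, 71.7% and 1.18% of all genes. Within doxycycline in entinostat and both entinostat comparisons not every same-numbered pair correlated above 0.1 (9 of 18 pairs of experiment 2 did), while same-numbered NoDox_Entinostat and Dox_DMSO libraries correlated at 0.78, 0.549 and 0.533. NoDox_Entinostat replicate 2 and Dox_DMSO replicate 3 correlated nearly as high, at 0.476, and NoDox_Entinostat replicate 3 and Dox_DMSO replicate 2 at 0.463. Unlike-numbered pairs with a first library, which stands apart in both groups, were negative. Between RLE factors, DESeq2, counts minus 1 and the other alternatives not named here, the count of ETS genes called stayed within 1.5 times its main value. With 3 libraries a group, a change missed by these tests is not shown to be absent.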
